A study of Mus musculus with 9 samples.

Results

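Lung RNA was compared between the ventilated mice of a ventilator-induced lung injury (VILI) experiment whose libraries held much and little Cirbp mRNA. Cirbp encodes cold-inducible RNA-binding protein. The 6 VILI libraries of the 9 in the series were chosen by their summed Cirbp signal, with a line at 60 FPKM (fragments per kilobase of transcript and per mega mapped fragments). The 3 high-Cirbp libraries were VILI 0 hours replicate 1 and VILI 6 hours replicates 2 and 3, with 90.8, 63.4 and 65.7 FPKM of Cirbp. The 3 low-Cirbp libraries were VILI 0 hours replicates 2 and 3 and VILI 6 hours replicate 1, with 30.6, 37.9 and 32.7 FPKM. The libraries just inside and just outside the line thus held 63.4 and 37.9 FPKM. Control replicates 1 to 3 held 42.0, 39.9 and 40.5 FPKM, between the sides. In the sentences that follow, 3 values of a side are given in the order of these libraries.

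All mice were male C57BL/6 mice, 3 per labelled group, and each library came from the lung of 1 mouse. Controls had been intubated but not ventilated. VILI mice had been ventilated at high tidal volume under ketamine and xylazine anesthesia, with pancuronium as muscle relaxant and a heating pad meant to keep body temperature normal. Their lungs were taken at the end of ventilation (VILI 0 hours) or after 6 hours of recovery (VILI 6 hours). No temperature of any mouse was analysed here.

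Cirbp and its relative Rbm3 are RNA-binding proteins whose mRNA and protein accumulate when mammalian cells are mildly cooled, while the heat-shock chaperones are made when cells are warmed or their proteins unfold. Cirbp transcripts also follow the daily cycle of body temperature, and the protein binds other mRNAs and bears on their splicing, polyadenylation and stability. Protein released from stressed cells acts as an inflammatory signal, which is the form best known in injured lung. These are background facts, and the data below are mRNA levels in whole lung.

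The sides were defined by a measured value, so the comparison is a description and carries no p. A gene is called apart where the lowest library of one side lies above the highest of the other. Differences are high minus low on the log2(FPKM + 0.1) scale, which understates the change of low genes, and the error given is the SE of the difference (n = 3 per side). Each difference was also taken within VILI 0 hours (1 high against 2 low libraries) and within VILI 6 hours (2 high against 1 low), which share no library. A gene that is apart has the same sign at both times by construction, so that sign is no sign of stability.

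Summed FPKM ran from 366360 to 388459 and the share of the mitochondrial genome from 6.29% to 10.8%, with the sides overlapping in both. Other measures of the whole library were apart. Protein-coding genes at 1 FPKM or more numbered 12833, 12912 and 12771 in the high-Cirbp libraries, 12941, 12962 and 13004 in the low-Cirbp libraries and 13004 to 13051 in control. The 10 genes with most signal held 15.1% to 17.6% of FPKM on the high side and 17.7% to 19.1% on the low side, and the median log2 level was also lower in every high-Cirbp library (3.20 to 3.27 against 3.28 to 3.38). By the paper's read statistics, matched by group and number, each high-Cirbp library had fewer total and uniquely mapped reads than every low-Cirbp library. The share of reads mapped was also lower in each. These measures move with the excess of lower genes below, and their part in it was not tested. The values are FPKM, with no counts behind single genes used here, so precision is judged from the spread between libraries alone. Every tested surfactant, endothelial and airway marker was above 0 in all 9 libraries. Of all tested genes only 39 were at 0 in at least 1 of the 6 VILI libraries, so this says little about the tissue. VILI 6 hours replicate 3, on the high side, stood apart with a mean Spearman rho of 0.907 with the controls, while the other VILI libraries had 0.948 to 0.969. VILI 6 hours replicate 1, on the low side, did not stand apart by this measure (0.969), but its 6 erythroid markers summed to 489 FPKM against 3226 to 5420 in the other 8 libraries. Many values below depend on it, so a value without a library is given beside many of the results that moved with it.

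Many genes were lower in the high-Cirbp libraries and fewer were higher. Of 13070 protein-coding genes with a mean of at least 1 FPKM, Cirbp left out, 1058 (8.09%) were apart and higher in the high-Cirbp libraries and 2884 (22.1%) were apart and lower. The other 9128 overlapped. Differences of at least 2-fold were found for 76 of the higher and 166 of the lower genes, but for 49 and 42 with a pseudocount of 1 and for 112 and 118 after centring each library on its median. The median difference over all genes was -0.097, and after the same centring 1739 genes were higher and 2100 lower. The share of apart genes that were higher thus moved from 26.8% to 45.3%, so the excess of lower genes depends on the scaling. Leaving out VILI 6 hours replicate 1 gave 1706 higher and 3464 lower genes. Leaving out VILI 0 hours replicate 1 gave 1726 and 4104, with fewer libraries to overlap in each case. Over all 13070 genes the high-Cirbp side lay outside the controls for 48.1% (15.4% above and 32.7% below) and the low-Cirbp side for 24.4%, and the counts for apart genes are to be read beside these. Of the 1058 higher genes, 732 (69.2%) lay above all controls in the high-Cirbp libraries, while 684 (64.7%) overlapped the controls in the low-Cirbp libraries, where 75.6% of all genes did. Of the 2884 lower genes, 2265 (78.5%) lay below all controls in the high-Cirbp libraries, and 2200 (76.3%) overlapped the controls in the low-Cirbp libraries. Mean rank correlation with control was 0.937 for the high and 0.964 for the low side.

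Il20rb, a receptor subunit for cytokines of the interleukin-20 family, had the widest gap among the higher genes. It was at 3.05, 3.33 and 3.58 FPKM in the high-Cirbp libraries, 1.09, 1.31 and 0.983 in the low-Cirbp libraries and 0.938, 1.21 and 0.955 in control, a difference of 1.48 ± 0.13. Ramp3, which partners the receptor of adrenomedullin, was at 3.78, 4.86 and 6.28 FPKM in the high-Cirbp libraries, 1.52, 1.68 and 1.16 in the low-Cirbp libraries and 0.760, 1.67 and 1.47 in control, a difference of 1.69 ± 0.26. For both genes the low-Cirbp libraries overlapped the controls and every high-Cirbp library stood well above them. Slc7a5, a carrier of large neutral amino acids, was at 7.97, 7.84 and 10.2 FPKM in the high-Cirbp libraries, 4.40, 4.47 and 3.14 in the low-Cirbp libraries and 2.39, 2.25 and 2.33 in control (1.1 ± 0.20), so that all 6 VILI libraries were above control and the high-Cirbp ones most. Dio2, the deiodinase that makes active thyroid hormone in tissues, was at 2.75, 0.924 and 2.73 FPKM in the high-Cirbp libraries, 0.240, 0.522 and 0.452 in the low-Cirbp libraries and 0.436, 0.777 and 0.467 in control (2.05 ± 0.56). Cldn4, a tight junction claudin of epithelia, was at 4.68, 3.78 and 13.2 FPKM in the high-Cirbp libraries, 1.75, 1.36 and 1.91 in the low-Cirbp libraries and 1.81, 1.49 and 1.28 in control (1.84 ± 0.57), and its highest library was VILI 6 hours replicate 3. Rubcnl, an autophagy factor, differed by 0.96 ± 0.10. Gm13889 was at 27.8, 54.7 and 98.7 FPKM in the high-Cirbp libraries, 16.7, 12.8 and 0.326 in the low-Cirbp libraries and 24.0, 27.6 and 22.4 in control, and its difference of 3.56 ± 1.79 was 1.86 without VILI 6 hours replicate 1. Olfr920 differed by 1.99 and 1700109H08Rik by 1.57, and Gm20708 (1.19) and Lbhd1 (1.40) overlap other genes. The last of the 12, Mt2, is described with its family.

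Among the lower genes the widest gap belonged to Cyp1a1, the cytochrome P450 induced through the aryl hydrocarbon receptor. It was at 8.21, 9.79 and 10.4 FPKM in the high-Cirbp libraries, 42.6, 41.3 and 66.6 in the low-Cirbp libraries and 17.9, 82.3 and 16.0 in control, a difference of -2.37 ± 0.24. All high-Cirbp libraries lay below every other library, but 1 control stood above every VILI library, and controls spread widely. Rbp7, a retinol-binding protein of fat and endothelium, was at 0.333, 0.316 and 0.408 FPKM in the high-Cirbp libraries, 1.82, 2.1 and 1.95 in the low-Cirbp libraries and 1.26, 2.86 and 1.70 in control (-2.19 ± 0.10). Thrsp, a regulator of fatty acid synthesis that responds to thyroid hormone, was at 2.44, 2.0 and 2.09 FPKM in the high-Cirbp libraries, 6.36, 6.79 and 7.29 in the low-Cirbp libraries and 5.09, 5.83 and 5.0 in control (-1.61 ± 0.10). The spread within each side was small for both genes. Senp8, the protease that removes NEDD8, was at 0.620, 0.504 and 0.380 FPKM in the high-Cirbp libraries, 2.13, 1.52 and 1.94 in the low-Cirbp libraries and 1.60, 1.68 and 1.61 in control (-1.71 ± 0.22). Kctd21, an adaptor of cullin ubiquitin ligases, was at 1.62, 1.97 and 1.05 FPKM in the high-Cirbp libraries, 4.92, 4.41 and 5.29 in the low-Cirbp libraries and 5.32, 4.68 and 5.01 in control (-1.63 ± 0.26). 1810009A15Rik was at 3.49, 3.38 and 4.38 FPKM in the high-Cirbp libraries, 13.2, 13.7 and 11.8 in the low-Cirbp libraries and 11.7, 11.6 and 12 in control (-1.76 ± 0.13). It overlaps Lbhd1 on the same strand, and Lbhd1 went the other way, so the split of reads between these overlapping genes is uncertain. Stxbp4, a syntaxin-binding protein, differed by -1.34 ± 0.23, Mtfp1, which acts in mitochondrial fission, by -1.28 ± 0.14, Lekr1 by -1.32 ± 0.10 and 2810006K23Rik by -1.59 ± 0.22. The zinc finger genes Zfp420 (-1.18 ± 0.10) and Zfp934 (-1.86 ± 0.27) completed the list, with Zfp934 uncertain because it overlaps Zfp935. In all 24 genes, chosen by their gap, the high-Cirbp libraries lay outside the control range, beside 48.1% of all genes. The low-Cirbp libraries overlapped it for 14 of the 24, beside 75.6% of all genes.

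**Figure D1:**
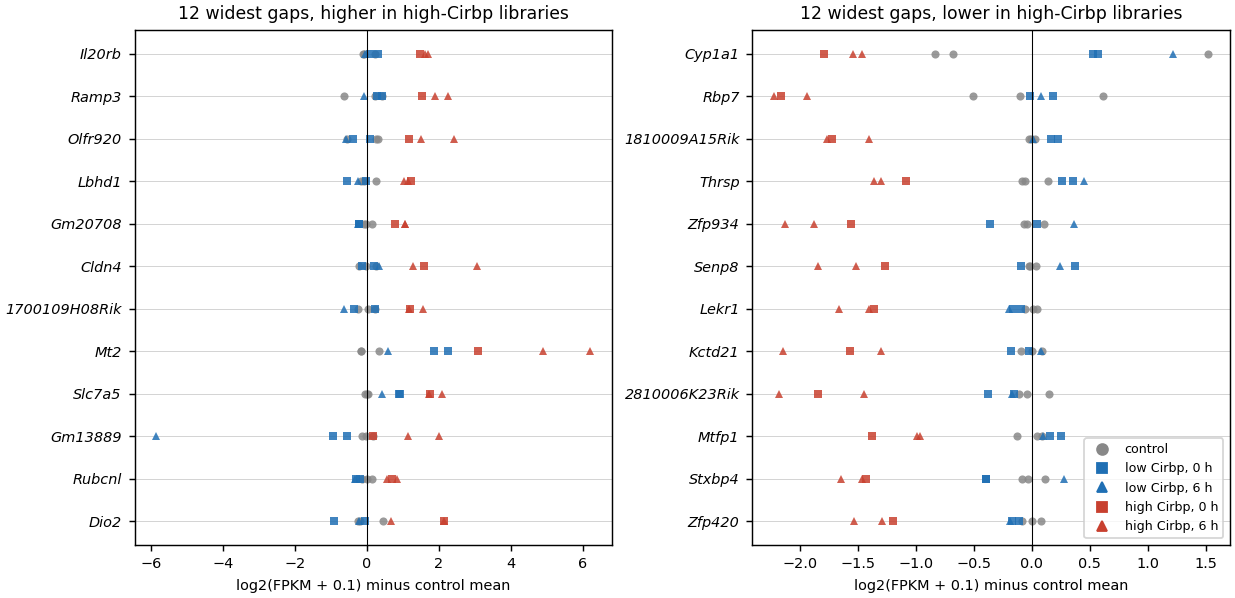
Level of the 12 genes with the widest gap in each direction, in each of the 9 libraries, as log2(FPKM + 0.1) minus the control mean (x axis, log2 units). Each point is 1 library, with control in grey, low-Cirbp in blue and high-Cirbp in red, and squares and triangles for VILI 0 and 6 hours. The red points lie apart from the blue ones because the genes were chosen so, and the grey points lie on the blue side for most genes.

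Rbm3, the closest relative of Cirbp, was higher in the high-Cirbp libraries. It was at 149, 118 and 165 FPKM in the high-Cirbp libraries, 86.9, 68.2 and 50.7 in the low-Cirbp libraries and 89.4, 83.6 and 103 in control, a difference of 1.09 ± 0.27, with 0.95 within VILI 0 hours and 1.46 within VILI 6 hours. All high-Cirbp libraries lay above the controls, and the low-Cirbp libraries overlapped them. The antisense gene Rbm3os overlaps Rbm3, and the counting is not stated to use strand, so their reads may be mixed. The same holds for Pdia6, Hnrnpk, Rpl18, Dusp1, G6pdx and 1700109H08Rik, which overlap a coding gene on the other strand, as Atf5, Irf7, Ccna2, Tagln and Pln do too. Txnrd1 overlaps Eid3 on its own strand, and Gm13889, Lekr1, Bag3, Slc7a11, Fkbp5, Srsf4, Fdps and mt-Atp8 are among the others that overlap an annotated gene on their own strand, so their values are uncertain in the same way.

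The 22 heat-shock chaperones tested, which fold proteins under heat and other stress, were mostly lower. Their median difference was -0.53, and 12 were apart and lower against 1 higher, beside 22.1% and 8.09% of all genes. The high-Cirbp libraries lay below every control for 12 of the 22, and for 32.7% of all genes. Median levels against control were -0.25, -0.33 and -0.22 in the high-Cirbp and 0.12, 0.15 and 0.54 in the low-Cirbp libraries. Without VILI 6 hours replicate 1 the median difference was -0.37, and without that library and VILI 6 hours replicate 3 it was -0.34. Hsph1, the large partner of Hsp70, was at 7.94, 6.64 and 7.42 FPKM in the high-Cirbp libraries, 11.8, 16.5 and 30.2 in the low-Cirbp libraries and 12.1, 9.40 and 11 in control (-1.29 ± 0.40). Fkbp4, a co-chaperone of steroid receptors, was at 29.8, 29.9 and 21.9 FPKM in the high-Cirbp libraries, 39.6, 35.4 and 70.8 in the low-Cirbp libraries and 45.1, 43.5 and 44.9 in control (-0.78 ± 0.34, or -0.47 without VILI 6 hours replicate 1). Hsp90ab1, the constitutive cytosolic Hsp90, was at 225, 235 and 216 FPKM in the high-Cirbp libraries, 279, 301 and 487 in the low-Cirbp libraries and 249, 258 and 244 in control (-0.61 ± 0.25, or -0.36 without VILI 6 hours replicate 1). The highest low-Cirbp library was VILI 6 hours replicate 1 for all 3 genes. Chordc1, a co-chaperone of Hsp90, was at 9.93, 9.82 and 8.73 FPKM in the high-Cirbp libraries, 16.7, 13 and 17.1 in the low-Cirbp libraries and 15.3, 17.1 and 16.4 in control, a difference of -0.70 ± 0.14, and -0.56 within VILI 0 hours, where that library has no part. Hspa1b, the inducible Hsp70, overlapped, at 12.6, 2.51 and 2.68 FPKM in the high-Cirbp libraries, 6.41, 39.5 and 7.66 in the low-Cirbp libraries and 4.17, 3.74 and 3.57 in control, and cannot be told from its near-identical copy Hspa1a with certainty. Bag3 was the apart gene that was higher (0.16 ± 0.057), and Hspb8 had the highest difference (0.40, or 0.25 without VILI 6 hours replicate 1) but overlapped.

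The 17 genes listed as chaperones of the endoplasmic reticulum (ER), which include genes of ER protein degradation, went the same way. Their median was -0.43, with 9 lower and 1 higher, beside 22.1% and 8.09% of all genes. It was -0.10 within VILI 0 hours and -0.70 within VILI 6 hours, beside -0.037 and -0.17 over all genes. Sdf2l1, a component of an ER chaperone complex, was at 4.39, 4.28 and 5.50 FPKM in the high-Cirbp libraries, 8.33, 8.80 and 18.3 in the low-Cirbp libraries and 6.38, 6.40 and 5.54 in control (-1.22 ± 0.38). Calr, the calcium-binding lectin chaperone calreticulin, was at 116, 122 and 115 FPKM in the high-Cirbp libraries, 162, 170.1 and 253 in the low-Cirbp libraries and 141, 136 and 137 in control (-0.70 ± 0.21). Pdia6, a disulfide isomerase, was at 46.7, 42.0 and 37.9 FPKM in the high-Cirbp libraries, 60.1, 64.1 and 99.5 in the low-Cirbp libraries and 57.1, 62.2 and 63.2 in control (-0.79 ± 0.24). The low-Cirbp libraries of VILI 0 hours were close to or a little above control, and VILI 6 hours replicate 1 was the highest library for these genes. Without it the list median was -0.24, over 1.5 times smaller, although 10 genes were then apart and lower. Creld2 (-0.74) and Hspa5, the ER Hsp70 (-0.43, or -0.15 without VILI 6 hours replicate 1), were also lower. Herpud1, which acts in the degradation of ER proteins, was the apart gene that was higher, at 127, 126 and 124 FPKM in the high-Cirbp libraries, 105, 107 and 49.0 in the low-Cirbp libraries and 61.4, 55.9 and 59.2 in control (0.62 ± 0.37, or 0.25 without VILI 6 hours replicate 1).

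The promoters of Chordc1 and Calr are shown because heat-shock and ER stress factors are known to act through short elements in such promoters. The sequences are RefSeq promoters on GRCm38.p6, from 250 bases before to 50 after the start. Capitals mark the heat-shock element in Chordc1 (GAA, 2 free bases, TTC, 2 free bases, GAA, or the reverse, with 3 overlapping matches) and the ER stress response element in Calr (CCAAT, 9 free bases, CCACG, on the strand opposite to the one shown).
Chordc1, chr9:18292017-18292316, plus strand: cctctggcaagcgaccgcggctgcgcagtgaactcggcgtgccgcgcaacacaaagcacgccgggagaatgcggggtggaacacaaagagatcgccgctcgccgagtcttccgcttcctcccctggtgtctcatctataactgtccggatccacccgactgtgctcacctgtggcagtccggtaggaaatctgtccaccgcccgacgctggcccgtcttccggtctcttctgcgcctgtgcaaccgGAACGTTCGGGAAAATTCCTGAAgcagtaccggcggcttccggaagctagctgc
Calr, chr8:84846882-84847181, minus strand: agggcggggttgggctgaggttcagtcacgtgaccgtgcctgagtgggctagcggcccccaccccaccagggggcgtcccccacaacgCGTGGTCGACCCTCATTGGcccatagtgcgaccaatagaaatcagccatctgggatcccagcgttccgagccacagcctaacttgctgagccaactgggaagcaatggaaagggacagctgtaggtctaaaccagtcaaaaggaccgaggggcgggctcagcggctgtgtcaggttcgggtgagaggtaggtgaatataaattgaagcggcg
The heat-shock element was found in 4 of the 18 heat-shock genes with a promoter in the table (Hsph1, Hspe1, Hspd1 and Chordc1) and in 0.603% of all 32851 promoters. The ER element was found in 7 of 15 ER genes and in 0.119% of all promoters. Among the 53 tested genes with a heat-shock element 20.8% were lower and 9.43% higher, beside 22.8% and 8.22% of the 10214 tested genes with a promoter. Of the 17 tested genes with the ER element 7 were lower and 1 was higher. The 7 ER list genes that hold the element are among these 17, so this count in part repeats the list. A match is a description of letters and not of a bound site.

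Enzymes of sterol synthesis, which make cholesterol from acetyl-CoA, were lower as well. Of 19 genes 12 were apart and lower and 0 higher, beside 22.1% and 8.09% of all genes, with a median difference of -0.42 (-0.24 within VILI 0 hours and -0.68 within VILI 6 hours). Without VILI 6 hours replicates 1 and 3 together the median was -0.28. Mvk, mevalonate kinase, was at 4.37, 5.25 and 3.18 FPKM in the high-Cirbp libraries, 7.07, 7.11 and 9.58 in the low-Cirbp libraries and 7.17, 6.85 and 7.60 in control (-0.89 ± 0.25). Fdps, farnesyl diphosphate synthase, was at 15.2, 14.8 and 13 FPKM in the high-Cirbp libraries, 19.8, 21.9 and 29.7 in the low-Cirbp libraries and 16.3, 19.6 and 22.0 in control (-0.71 ± 0.19). Dhcr7 (-0.79 ± 0.18) and Nsdhl (-0.63 ± 0.10), which act late in the pathway, were lower too. The high-Cirbp libraries lay below all controls for 8 of the genes, and for 32.7% of all genes. The sterol regulatory element (TCAC, 1 free base, CCAC, both strands) was found in the promoter of Hmgcs1 only, of 12 list genes with a promoter, and in 1.24% of all promoters.

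**Figure D2:**
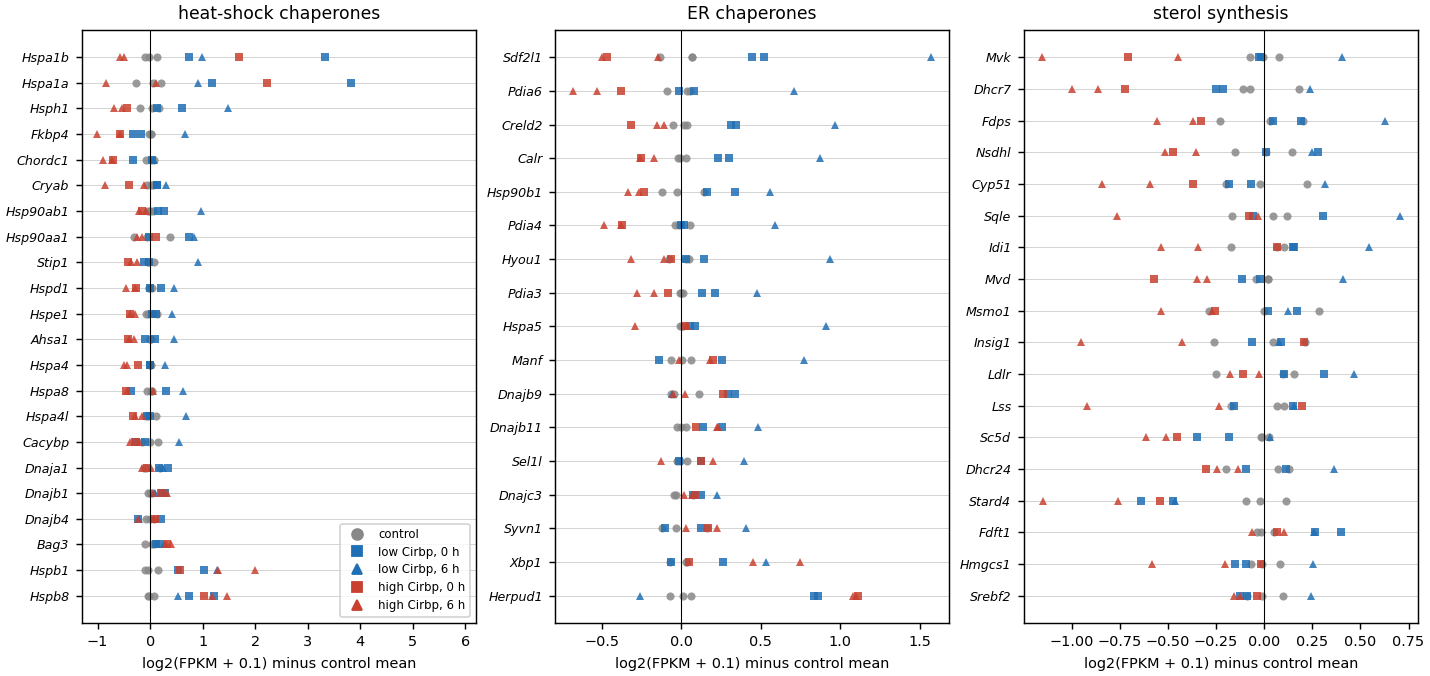
Heat-shock chaperones, ER chaperones and 18 of the 19 sterol synthesis genes in each of the 9 libraries, as log2(FPKM + 0.1) minus the control mean (x axis, log2 units). Each point is 1 library, coloured and shaped by Cirbp side and time as the legend gives. Most red points (high Cirbp) lie left of the blue ones, and the blue triangle (VILI 6 hours replicate 1) is the rightmost point for many chaperones.

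Nuclear genes of the respiratory chain were a little lower. Of 80 genes, 75 had a difference below 0, as had 8132 of all 13070 genes, and 29 were apart and lower and 1 was higher (Cox5b, 0.10, or 0.061 without VILI 6 hours replicate 3), beside 22.1% and 8.09% of all genes, with a median of -0.19. After median-centring the median was -0.10 and 18 genes were lower, beside 16.1% of all genes under that scaling, so the size of this difference depends on the scaling. Cox7b, a subunit of cytochrome c oxidase, was at 34.4, 31.3 and 31.2 FPKM in the high-Cirbp libraries, 44.5, 44.9 and 44.5 in the low-Cirbp libraries and 36.2, 37.9 and 42.9 in control (-0.47 ± 0.046). Ndufa4 differed by -0.59 and Atp5s, the lowest, by -0.87 ± 0.29, and Ndufa6 had the highest difference (0.10, or -0.016 without VILI 6 hours replicate 1). The 13 genes of the mitochondrial genome had a median of -0.017, from mt-Nd3 (-0.16, or 0.039 without VILI 6 hours replicate 2) to mt-Atp8 (0.24, or 0.046 without VILI 6 hours replicate 1), and none was apart.

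Metallothioneins, small proteins that bind zinc and other metals, were higher in the high-Cirbp libraries by the largest list median of all. Mt1 was at 154, 463 and 929.6 FPKM in the high-Cirbp libraries, 90.8, 98.6 and 39.3 in the low-Cirbp libraries and 34.0, 35.4 and 33.3 in control (2.52 ± 0.86). Mt2 was at 129.8, 455 and 1126 FPKM in the high-Cirbp libraries, 55.2, 72.6 and 23.0 in the low-Cirbp libraries and 13.6, 19.1 and 13.6 in control (3.16 ± 1.03). All VILI libraries were above control for both genes, and the low-Cirbp VILI 6 hours replicate 1 was the closest to it. Within VILI 0 hours the differences were 0.70 for Mt1 and 1.04 for Mt2, and within VILI 6 hours 4.06 and 4.96. Slc39a14, a zinc importer, was at 9.17, 19.3 and 42.0 FPKM in the high-Cirbp libraries, 5.22, 6.74 and 5.91 in the low-Cirbp libraries and 5.08, 4.12 and 4.43 in control (1.70 ± 0.64). Slc30a1, a zinc exporter, overlapped (-0.20, or -0.0069 without VILI 0 hours replicate 3). The list median over 4 genes was 2.11, 1.90 without VILI 6 hours replicate 1, 1.54 without VILI 6 hours replicate 3 and 1.32 without both.

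The promoters of Mt1 and Mt2 are shown because the genes lie side by side on chromosome 8 and both were apart by large differences. Capitals mark the core of the metal response element (TGCACNC or TGCGCNC, both strands).
Mt1, chr8:94178839-94179138, plus strand: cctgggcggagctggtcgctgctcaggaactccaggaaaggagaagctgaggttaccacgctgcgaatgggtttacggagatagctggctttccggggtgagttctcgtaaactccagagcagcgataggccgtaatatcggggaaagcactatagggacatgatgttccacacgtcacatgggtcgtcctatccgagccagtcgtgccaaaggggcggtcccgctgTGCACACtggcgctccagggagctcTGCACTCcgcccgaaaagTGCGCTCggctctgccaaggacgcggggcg
Mt2, chr8:94172368-94172667, plus strand: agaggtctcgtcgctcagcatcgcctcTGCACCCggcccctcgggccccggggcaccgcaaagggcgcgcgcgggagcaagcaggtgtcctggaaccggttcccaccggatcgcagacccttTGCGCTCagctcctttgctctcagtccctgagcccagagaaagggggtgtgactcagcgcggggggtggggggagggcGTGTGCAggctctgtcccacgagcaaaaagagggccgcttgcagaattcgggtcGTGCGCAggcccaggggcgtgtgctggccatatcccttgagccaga
The core was found 3 times in Mt1 and 4 times in Mt2, but 25.7% of all promoters held it at least once, and 23.1% of the 4078 tested genes that held it were lower and 8.41% higher, close to the shares of all genes.

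Targets of NRF2, the factor that induces glutathione and thioredoxin enzymes, were also higher. Of 10 genes 6 were apart and higher and 0 lower, beside 8.09% and 22.1% of all genes, with a median of 0.51. Slc7a11, the cystine importer, was at 2.59, 2.45 and 29.3 FPKM in the high-Cirbp libraries, 1.12, 2.03 and 1.24 in the low-Cirbp libraries and 0.286, 1.49 and 0.427 in control (1.95 ± 1.19, or 0.79 without VILI 6 hours replicate 3). Gclc, the catalytic subunit that starts glutathione synthesis, was at 121, 74.3 and 192 FPKM in the high-Cirbp libraries, 41.6, 45.2 and 74.2 in the low-Cirbp libraries and 54.3, 65.4 and 53.3 in control (1.21 ± 0.47). Txnrd1, thioredoxin reductase, was at 36.0, 35.8 and 70.5 FPKM in the high-Cirbp libraries, 20.4, 21.4 and 26.8 in the low-Cirbp libraries and 23.7, 26.8 and 21.3 in control (0.98 ± 0.35). VILI 6 hours replicate 3 was the highest library for each of these, and without it the list median was 0.44. Nqo1 (0.54), Osgin1 (0.48) and Gclm (0.46) were the other apart genes, and G6pdx had the lowest difference (-0.016, or 0.15 without VILI 0 hours replicate 1). The antioxidant response element (TGAC, 3 free bases, GC, both strands) was found in 4 of 7 list promoters and in 12.4% of all promoters.

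Splicing regulators as a list were close to all genes, with a median of -0.088 over 27 genes beside -0.097, and 22.2% apart and lower (6 genes) beside 22.1%. Another 4 were apart and higher, beside 8.09% of all genes. Some members with large differences spread little within each side, but Srsf1 (-0.60, or -0.10 without VILI 6 hours replicate 1) overlapped. Tra2a, an activator of exon inclusion, was at 21, 22.2 and 22.6 FPKM in the high-Cirbp libraries, 39.9, 39.3 and 40.6 in the low-Cirbp libraries and 43.3, 41.6 and 41.4 in control (-0.86 ± 0.033), with -0.91 and -0.86 within the times. Srsf7, a serine and arginine-rich splicing factor, was at 18.9, 18.8 and 17.4 FPKM in the high-Cirbp libraries, 27.4, 26.7 and 29.6 in the low-Cirbp libraries and 29.4, 28.7 and 29.7 in control (-0.60 ± 0.059). In both genes the low-Cirbp libraries and the controls had nearly the same level. Luc7l3 (-0.59) and Hnrnpa2b1 (-0.32) were lower too. Hnrnpk, a ribonucleoprotein of pre-mRNA, showed the other order: it was at 156, 146 and 151 FPKM in the high-Cirbp libraries, 92.3, 103 and 88.2 in the low-Cirbp libraries and 139.7, 146 and 146 in control (0.68 ± 0.073), so that the low-Cirbp libraries lay below control and the high-Cirbp ones near or above it. Srsf5 was at 248, 207 and 243 FPKM in the high-Cirbp libraries, 159, 182 and 158 in the low-Cirbp libraries and 174, 179 and 178 in control (0.48 ± 0.10), with the high-Cirbp libraries above control. Hnrnpd (0.47, or 0.24 without VILI 6 hours replicate 3) and Srsf4 (0.18, or 0.11 without VILI 6 hours replicate 1) were the other higher genes. These are summed levels per gene, and isoforms were not compared.

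**Figure D3:**
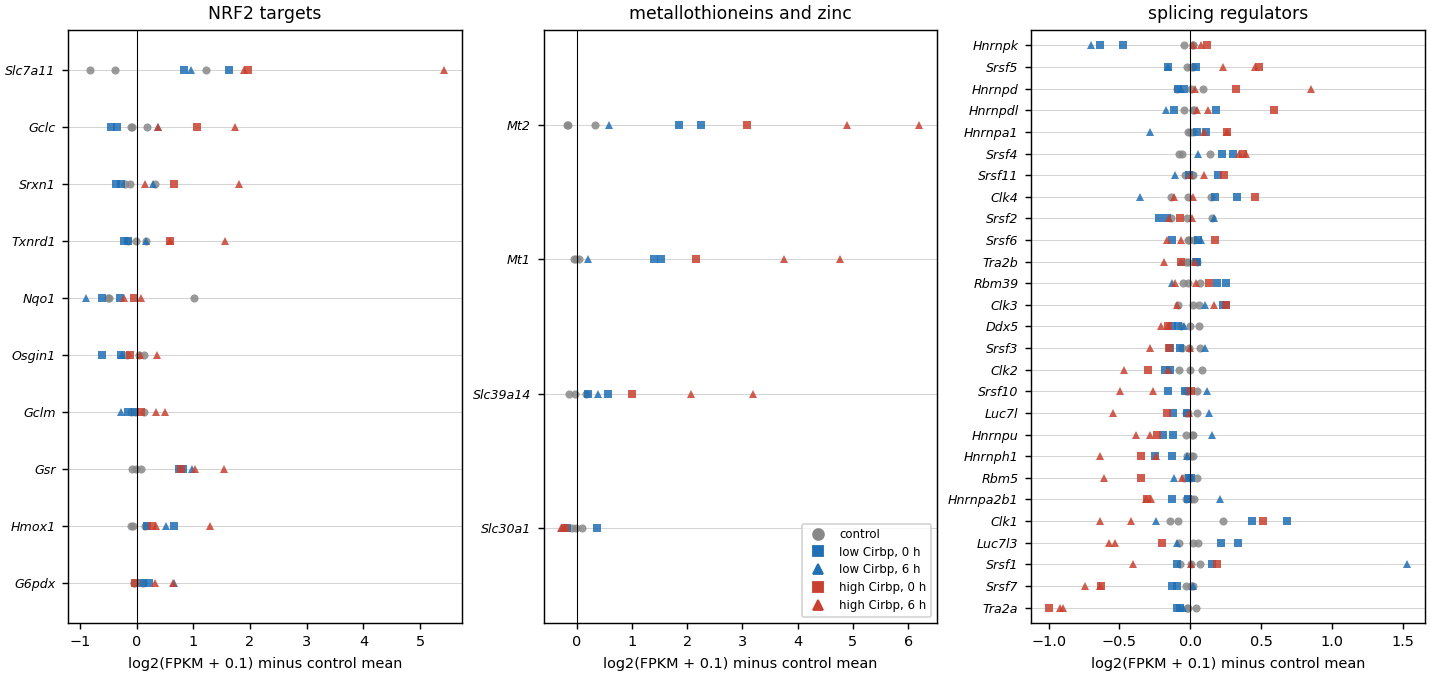
NRF2 targets, metallothionein and zinc genes, and splicing regulators in each of the 9 libraries, as log2(FPKM + 0.1) minus the control mean (x axis, log2 units). Each point is 1 library, coloured and shaped by Cirbp side and time as the legend gives. Mt1 and Mt2 span several log2 units with VILI 6 hours replicate 3 at the right end, while Tra2a and Srsf7 form a tight red group left of the others.

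Several response lists differed between the sides mainly through a single library. The 10 glucocorticoid-response genes had a median of 1.1 and all were above 0, and 2 (20.0%) were apart and higher, beside 8.09% of all genes. Median levels against control were 2.13, 2.25 and 2.36 in the high-Cirbp libraries and 1.65, 3.10 and -0.18 in the low-Cirbp ones. Fkbp5, a negative regulator of the glucocorticoid receptor, was at 86.3, 81.6 and 107 FPKM in the high-Cirbp libraries, 46.5, 96.5 and 6.73 in the low-Cirbp libraries and 4.62, 4.43 and 3.53 in control (1.54, or 0.44 without VILI 6 hours replicate 1). VILI 6 hours replicate 1 was near control, VILI 0 hours replicate 3 was as high as the high-Cirbp libraries, and without VILI 6 hours replicate 1 the list median was 0.17. Sgk1, a kinase that regulates sodium transport, was apart at 98.0, 134 and 164 FPKM in the high-Cirbp libraries, 55.6, 97.1 and 42.1 in the low-Cirbp libraries and 40.7, 40.2 and 41.4 in control (1.08), as was Klf9 (0.81, or 0.26 without VILI 6 hours replicate 1), and Dusp1 had the lowest difference (0.073), which turned to -0.52 without VILI 6 hours replicate 1, so that not all members were then above 0. The 23 inflammatory mediators had a median of 1.18, with -0.50 within VILI 0 hours and 1.37 within VILI 6 hours, and it was -0.15 without VILI 6 hours replicate 3. Il6, a cytokine of acute inflammation, was the 1 gene that was apart, at 0.385, 1.58 and 19.3 FPKM in the high-Cirbp libraries, 0.0961, 0.162 and 0.306 in the low-Cirbp libraries and 0.232, 0.277 and 0.138 in control (3.19 ± 1.59, or 1.71 without that library). Csf3 had the highest difference (3.35, or 1.47 without that library) and Il1b the lowest (-0.54, or -0.031 without VILI 6 hours replicate 2 and -0.042 without VILI 0 hours replicate 3), and both overlapped.

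Neutrophil markers divided by time as well. Their median over 12 genes was 0.42, -0.73 within VILI 0 hours and 1.49 within VILI 6 hours. It was -0.12 without VILI 6 hours replicate 3 and 0.074 without VILI 6 hours replicate 1. Ngp, a granule protein of immature neutrophils, was apart and higher at 5.14, 24.7 and 118 FPKM in the high-Cirbp libraries, 4.39, 3.96 and 0.677 in the low-Cirbp libraries and 0.568, 1.14 and 0.494 in control (3.36 ± 1.54, or 2.24 without VILI 6 hours replicate 3). Csf3r, the receptor for the neutrophil growth factor, was apart and lower at 23.7, 24.7 and 27.9 FPKM in the high-Cirbp libraries, 33.4, 57.1 and 36.8 in the low-Cirbp libraries and 7.47, 7.09 and 6.29 in control (-0.70 ± 0.25). Both sides lay above control for Csf3r. In these bulk samples fewer cells of a type and less RNA per cell cannot be told apart.

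**Figure D4:**
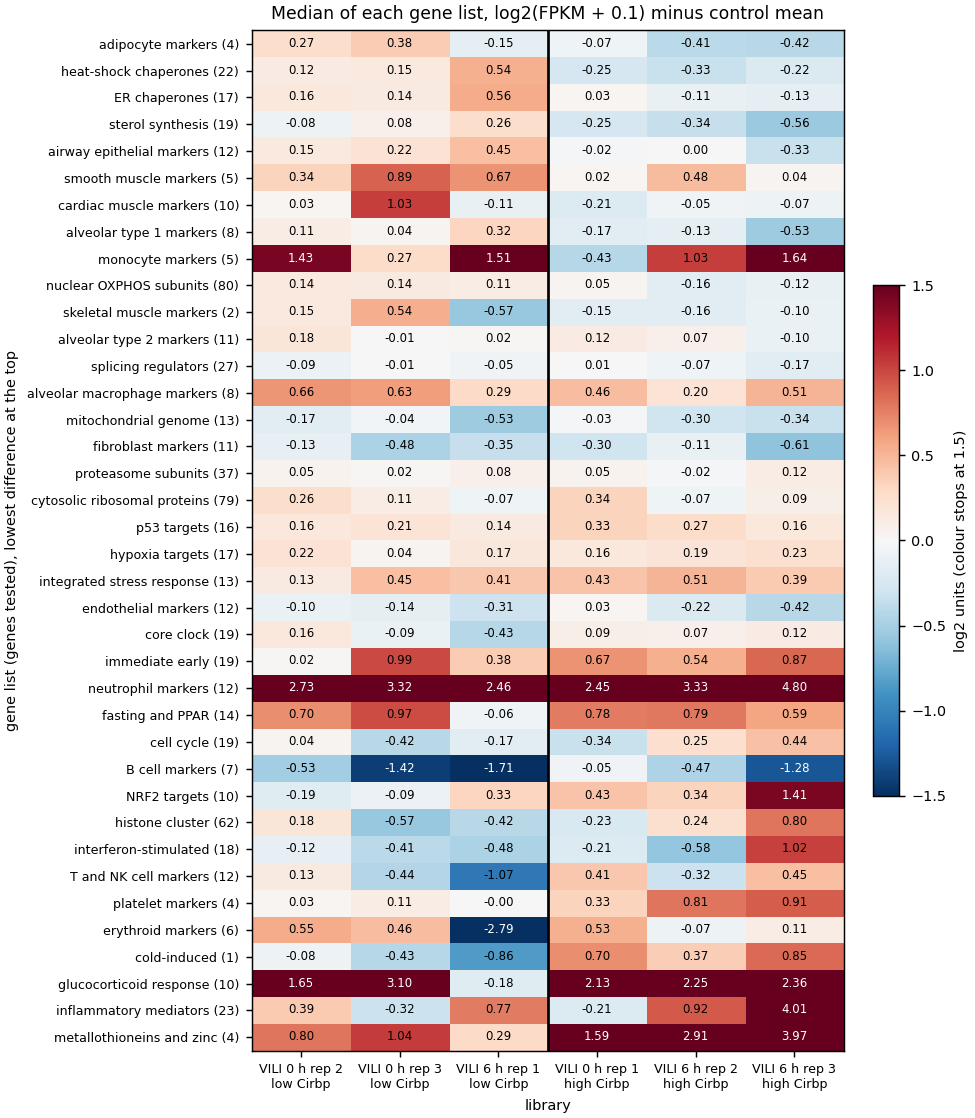
Median of each of the 38 gene lists in each of the 6 VILI libraries, as log2(FPKM + 0.1) minus the control mean, with list names and genes tested on the y axis and libraries on the x axis (3 low-Cirbp left of the line, 3 high-Cirbp right). Colour gives log2 units and stops at 1.5. Heat-shock chaperones are negative in the 3 high-Cirbp libraries and positive in the low-Cirbp ones, and the glucocorticoid list is negative in VILI 6 hours replicate 1 and positive in the other VILI libraries.

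In the other response lists the counts of apart genes are to be read beside the 8.09% higher and 22.1% lower of all genes. In the core clock (median 0.22, from 0.062 to 0.58 with a VILI library left out, over 19 genes) Bhlhe40 (1.16), Cry2 (0.48, or 0.29 without VILI 6 hours replicate 1) and Rora (0.27, or 0.11 without VILI 6 hours replicate 1) were higher (15.8% of the list), and Npas2 had the lowest difference (-0.81, or -0.34 without VILI 6 hours replicate 1) but overlapped, at 7.16, 1.77 and 2.66 FPKM in the high-Cirbp libraries, 1.80, 9.41 and 11.2 in the low-Cirbp libraries and 1.62, 2.81 and 2.37 in control. Of 19 immediate early genes (median 0.27, or 0.088 without VILI 6 hours replicate 3) Myc was higher at 4.97, 6.2 and 11 FPKM in the high-Cirbp libraries, 3.41, 2.18 and 3.23 in the low-Cirbp libraries and 2.55, 2.70 and 1.78 in control (1.25 ± 0.39), with Ier3 (1.09) and Jund (0.69), again 15.8% of the list, while Fos had the lowest difference (-0.84, or -0.17 without VILI 0 hours replicate 3). In the integrated stress response (median 0.18, or 0.083 without VILI 0 hours replicate 1 and 0.10 without VILI 6 hours replicate 1, 13 genes) Slc7a11 was higher and Chac1 (-0.91) and Atf5 (-0.58) were lower. Hypoxia targets (median 0.13, or 0.047 without VILI 6 hours replicate 1, 17 genes) held Adm (1.1, or 0.69 without VILI 6 hours replicate 3) and Hk2 (0.92, or 0.59 without VILI 6 hours replicate 3), both higher, and P4ha1 (-0.93), which was lower. Adm encodes adrenomedullin, the ligand of the receptor that Ramp3 joins. Among 16 p53 targets (median 0.064, or 0.018 without VILI 6 hours replicate 3) Eda2r (-0.84) and Ccng1 (-0.40) were lower, and Cdkn1a, a cell cycle inhibitor, had the highest difference but overlapped, at 207, 133 and 202 FPKM in the high-Cirbp libraries, 43.0, 173 and 22.4 in the low-Cirbp libraries and 14.2, 19.0 and 15.6 in control (1.68, or 1.04 without VILI 6 hours replicate 1). Among 14 genes of fasting and PPAR (median 0.46, or 0.18 without VILI 6 hours replicate 1) Pnpla2 (0.83, or 0.42 without VILI 6 hours replicate 1), a triglyceride lipase, was higher and Acadm (-0.32) was lower, and the ends were Angptl4 (1.47, or 0.23 without the same library) and Lpin1 (-0.50, or -0.043 without VILI 0 hours replicate 3).

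Among lists of proliferation and protein turnover, cell cycle genes (median 0.47, or 0.27 without VILI 6 hours replicate 2 and 0.29 without VILI 0 hours replicate 3, 19 genes) had Plk1 (0.87) and Ccnb2 (0.79) higher and Pcna (-0.26, or -0.17 without VILI 6 hours replicate 2) and Bub1 (-0.24, or -0.13 without VILI 0 hours replicate 1) lower, between Ccna2 (0.91) and Tyms (-0.48). After median-centring 4 of the cell cycle genes were apart and higher and 0 were lower. The 62 histone genes had a median of 0.57, or 0.25 without VILI 6 hours replicate 3, and it was -0.0029 within VILI 0 hours and 0.90 within VILI 6 hours. Beside 8.09% and 22.1% of all genes, 9 of them were higher and 3 lower, from Hist2h2be (-0.69) to Hist1h2an (1.40, or 0.86 without VILI 6 hours replicate 3), and near-identical copies make single histone genes uncertain. Cytosolic ribosomal proteins (median 0.016, 79 genes, 1 higher and 2 lower) ran from Rpl18 (-1.04) to Rpl29 (0.47, or 0.30 without VILI 0 hours replicate 1). Proteasome subunits (median 0.0027, 37 genes, 6 higher and 2 lower) ran from Psmd10 (-0.32, or -0.20 without VILI 6 hours replicate 2) to Psmb8 (0.32, or 0.086 without VILI 6 hours replicate 3), a subunit of the immunoproteasome. Interferon-stimulated genes (median 0.62, 18 genes) had a median level against control of -0.21, -0.58 and 1.02 in the 3 high-Cirbp libraries. The median difference was 0.17 without VILI 6 hours replicate 3, 0.29 without VILI 6 hours replicate 1 and -0.051 without both. They had Irf7 (0.92, or 0.28 without VILI 6 hours replicate 3) and Mx1 (0.70, or 0.40 without VILI 6 hours replicate 3) higher, between Usp18 (-0.11, or 0.035 without VILI 6 hours replicate 2) and Ifit1 (1.05, or 0.51 without VILI 6 hours replicate 3).

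Markers of lung cell types show how the tissue differed between the sides. Airway epithelial markers were lower, with a median of -0.42 (-0.22 without VILI 6 hours replicates 1 and 3 together), 8 of 12 lower and 1 higher, beside 22.1% and 8.09% of all genes. The 12 markers summed to 24636 to 31058 FPKM in the high-Cirbp, 31752 to 43215 in the low-Cirbp and 26158 to 28850.3 in the control libraries, mostly from Scgb1a1. Among them Tppp3 of ciliated cells (-0.68), Cyp2f2 (-0.59, or -0.34 without VILI 6 hours replicate 3) and Scgb1a1 (-0.41) of club cells were lower, Muc5b, a mucin, was higher at 16.9, 20.7 and 29.9 FPKM in the high-Cirbp libraries, 10.2, 12.7 and 14.4 in the low-Cirbp libraries and 17.1, 13.1 and 14.2 in control (0.82 ± 0.28), and Bpifa1 was lowest but overlapped (-0.97, or -0.64 without VILI 0 hours replicate 3). Alveolar type 1 markers (median -0.31, or -0.21 without VILI 6 hours replicate 3) had Rtkn2 (-1.0), Clic5 (-0.34) and Emp2 (-0.22, or -0.10 without VILI 6 hours replicate 3) lower of 8, and Pdpn was highest (0.15, or -0.026 without VILI 6 hours replicate 2). Alveolar type 2 markers (median -0.091, 11 genes) had Sftpd (0.36) higher and Nkx2-1 (-0.54, or -0.32 without VILI 6 hours replicate 3) and Lamp3 (-0.24) lower, with Cxcl15 lowest (-0.62). The type 2 median was -0.049 without VILI 0 hours replicate 2 and -0.17 without VILI 6 hours replicate 1. Endothelial markers (median 0.18, or -0.033 without VILI 0 hours replicate 1, 12 genes) had Cdh5 (0.36, or 0.21 without VILI 6 hours replicate 1) and Pecam1 (0.22, or 0.062 without VILI 6 hours replicate 1) higher, between Kdr (-0.51, or -0.20 without VILI 6 hours replicate 1) and Aplnr (0.56, or -0.92 without VILI 0 hours replicate 3). Of 11 fibroblast markers (median -0.0051) Pdgfra (0.57) and Pdgfrb (0.22, or 0.14 without VILI 6 hours replicate 2) were higher and Tcf21, a fibroblast transcription factor, was lower at 14.7, 18.6 and 14.8 FPKM in the high-Cirbp libraries, 27.5, 27.6 and 46.7 in the low-Cirbp libraries and 40.8, 40.7 and 39.5 in control (-1.04 ± 0.28). Smooth muscle markers (median -0.37, 5 genes) had Tagln (-0.34) lower, between Acta2 (-0.54) and Myh11 (-0.15, or -0.036 without VILI 0 hours replicate 1). The part of cell makeup in the differences of the other lists was not tested.

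Among markers of blood cells and of neighbouring tissues apart genes were found in several lists, beside 8.09% higher and 22.1% lower of all genes. Alveolar macrophage markers (median -0.024, 8 genes) had Chil3 (-0.89, or -0.59 without VILI 6 hours replicate 1) lower, with Plet1 highest (0.41, or -0.23 without VILI 6 hours replicate 3). No gene was apart among the lists of monocyte, B cell, and T and NK cell markers. The 5 monocyte markers (median -0.30) ran from F13a1 (-0.63, or 0.053 without VILI 0 hours replicate 1) to Ly6c2 (0.32, or -0.15 without VILI 6 hours replicate 3). The 7 B cell markers (median 0.48) ran from Fcer2a (0.33, or 0.071 without VILI 0 hours replicate 3) to Cd79a (0.96, or 0.50 without VILI 6 hours replicate 1), and the 12 T and NK cell markers (median 0.67) from Ncr1 (-0.086, or 0.17 without VILI 0 hours replicate 1) to Cd8b1 (0.89). Without VILI 6 hours replicate 1 the 3 medians were -0.13 for monocytes, 0.32 for B cells and 0.35 for T and NK cells. With VILI 0 hours replicate 1 left out instead, monocytes had 0.053 and B cells 0.27. Without VILI 6 hours replicate 3 the medians were -0.59 for monocytes, 1.02 for B cells and 0.57 for T and NK cells. In that setting 1 monocyte marker was apart and lower, and 4 B cell markers and 1 T and NK cell marker were apart and higher. The 6 erythroid markers, none apart, had a median of 0.83 (Slc4a1 -0.15, or 0.63 without VILI 0 hours replicate 3, to Hba-a2 0.94, or -0.11 without VILI 6 hours replicate 1) that was -0.30 without VILI 6 hours replicate 1. Of 4 platelet markers (median 0.76) Itga2b (0.83 ± 0.10) and Pf4 (0.34, or 0.21 without VILI 6 hours replicate 3) were higher. Cardiac muscle markers (median -0.36, or -0.02 without VILI 0 hours replicate 3, 10 genes) had Pln (-0.53, or -0.29 without VILI 0 hours replicate 3) lower, between Actc1 (-0.70) and Nppa (0.38, or -0.42 without VILI 6 hours replicate 1), and the 2 skeletal muscle markers that could be tested, Ckm (-0.20, or 0.32 without VILI 0 hours replicate 3) and Mylpf (-0.16, or -0.034 without VILI 6 hours replicate 2), overlapped (median -0.18). Of 4 adipocyte markers (median -0.55) Retn, the adipokine resistin, was lower at 1.79, 2.44 and 2.38 FPKM in the high-Cirbp libraries, 4.20, 4.52 and 6.11 in the low-Cirbp libraries and 3.02, 2.62 and 3.35 in control (-1.12 ± 0.21) and so was Plin1 (-0.84), while Cfd was highest (0.22, or -0.086 without VILI 6 hours replicate 1).

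Differences within the times were set side by side over all 13070 genes. They had the same sign for 65.0% of genes, with Pearson's r 0.275 and Spearman's rho 0.397 across genes, which are not independent replicates, and 65.2% of genes were below 0 within VILI 6 hours. Of 94 genes that were higher by at least 1 within VILI 0 hours, 71 (75.5%) were also above 0 within VILI 6 hours, where their median was 0.71. Of 191 that were lower by at least 1, 124 (64.9%) were also below 0, beside the 65.2% of all genes.

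**Figure D5:**
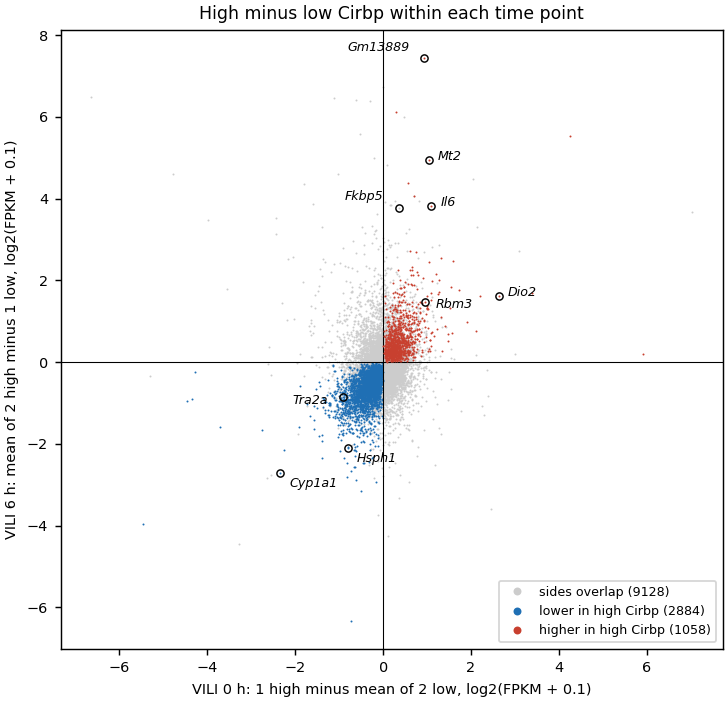
High minus low Cirbp within VILI 0 hours (x axis, 1 high library minus the mean of 2 low) and within VILI 6 hours (y axis, mean of 2 high minus 1 low), both in log2(FPKM + 0.1) units. Each point is a gene, coloured by whether the sides overlap, and genes of the text are circled. Coloured points lie at the lower left and upper right by construction, and Mt2 and Il6 stand far up the y axis.

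The labelled groups gave a test that did not use Cirbp. With limma on log2(FPKM + 0.1) of all 9 libraries and Benjamini-Hochberg adjustment, 35 genes were higher and 11 lower in VILI 0 hours than in control at an adjusted p under 0.05 (0.352% of genes), and 82 were higher and 53 lower in VILI 6 hours (1.03%). At an unadjusted P under 0.05 the shares were 16.5% and 21.7%. Between VILI 6 hours and VILI 0 hours limma called 0 genes after adjustment and 10.4% at an unadjusted P under 0.05, 637 higher and 728 lower. At that unadjusted threshold VILI 6 hours differed from control in 252 (23.8%) of the 1058 genes apart and higher and in 613 (21.3%) of the 2884 apart and lower, and VILI 0 hours in 132 (12.5%) and 211 (7.32%). Of the 1058 higher genes 44 (4.16%) and of the 2884 lower genes 63 (2.18%) had an unadjusted P under 0.05 between the times, below the 10.4% of all genes, as is fixed in part by the rule, since both times are on both sides. Against control, 1 higher and 3 lower genes were called after adjustment in VILI 0 hours and 2 and 3 in VILI 6 hours. The counts moved with single libraries. Without any 1 control at most 2 genes were called higher and 1 lower in either comparison with control. Without VILI 6 hours replicate 1 there were 588 higher and 464 lower genes in VILI 0 hours, 1262 and 2478 in VILI 6 hours, and 165 and 186 between the times.

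The lists that led the description passed few of these tests. In VILI 6 hours against control Hspb1, a small heat-shock protein, rose by 1.52 on the log2 scale (limma adjusted p 0.021), and Gsr, glutathione reductase, by 1.19 (limma adjusted p 0.018). All 3 VILI 6 hours libraries were above every control for both, so libraries of both sides shared this direction at that time. Without any 1 control a single gene was called higher there, so at least 1 of these calls ends. Of the neutrophil markers, 6 of 12 rose in VILI 0 hours and 8 in VILI 6 hours, among them Cxcr2, the receptor that draws neutrophils into tissue, by 3.57 (limma adjusted p 0.019) and 3.66 (0.010), with all 6 VILI libraries above every control. Over all genes at most 2 higher calls were left without any 1 control, so most of these calls end there, and 6 and 17 were left with a replicate block. Among fibroblast markers Lum, the matrix protein lumican, fell by 1.09 in VILI 6 hours (limma adjusted p 0.035), with all 3 libraries below every control, a call that ends without any 1 control. No gene of the ER chaperone, sterol synthesis, metallothionein, splicing or respiratory chain lists was called after adjustment in any labelled comparison.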

How the data were processed

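RNA of 9 mouse lungs was measured by RNA sequencing, with 3 libraries per group (control and both VILI times), grouped by the sample labels. The authors depleted rRNA, aligned reads with TopHat 2.0.9 (Bowtie2 2.0.6), assembled transcripts with Scripture and Cufflinks and deposited FPKM values per transcript from Cuffdiff 2.1.1 (GRCm38), with versions from the submitters' processing notes where given. The library kit and sequencer named by the labels and the paper differ, and use of strand in counting is not given in the sources used here. The table lists 60108 transcripts without transcript IDs, and no counts were used, so no count model was fitted.

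FPKM was summed per gene over the 21692 protein-coding genes, and genes with a mean of at least 1 FPKM were kept. Of 22112 Ensembl IDs 22011 matched GENCODE M21, used for positions and overlaps. Promoters were RefSeq sequences on GRCm38.p6. Positions of a promoter are 1-based.

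The side of each VILI library followed its Cirbp signal. The members and the 38 gene lists were chosen with earlier results of these data known, so no list is independent support. Named genes were the 12 with the widest gap in each direction among genes apart and above 0 in all 6 VILI libraries, the highest and lowest member of each list, further members as examples by size of the difference, and Rbm3. A member of the sterol list and a member of the fasting list are counted but not reported here by name. Genes called in the labelled groups, and genes named because they were apart within a list, were added after their values were seen. Labelled groups were tested with R 4.3.3 and limma 3.58.1 (moderated test with an intensity trend, all 9 libraries in 1 fit, 3 comparisons, Benjamini-Hochberg adjustment over all genes tested, log2(FPKM + 0.1)), a procedure tested on simulated data. Replicates are separate mice per the study's methods. Pseudocounts, filters, other scaling, the transcript with the highest mean, within-time means, a replicate block, fewer libraries and each library left out were tried as alternatives. Python 3.11.15, numpy 2.4.6, pandas 2.3.3 and matplotlib 3.10.9 were used.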

Additional observations from a re-analysis of the deposited data

Results flagged for a closer look

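A few lists had medians of opposite sign at the 2 times, with the high-Cirbp libraries all below the low-Cirbp ones at VILI 0 hours and all above at VILI 6 hours by the median of the list in each library. These differences between times were not tested. For neutrophil markers the median of high minus low was -0.73 within VILI 0 hours and 1.49 within VILI 6 hours. For cardiac muscle markers it was -0.67 and 0.22. For the 2 skeletal muscle markers tested it was -0.50 and 0.44.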

How the results depend on the processing

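More genes were apart and lower than apart and higher under each alternative tried, but with a pseudocount of 1 the genes at least 2-fold apart were 49 higher and 42 lower. The higher count was 1739 after median-centring, 1815 by the mean of the within-time differences, from 1458 to 1726 with 1 library left out and 2546 without VILI 6 hours replicates 1 and 3 together, a setting chosen after seeing the data. The lower count was from 3188 to 4104 with 1 library left out, and fewer libraries make an overlap less likely by construction. List medians moved for ER chaperones (-0.24 without VILI 6 hours replicate 1, which ends a leave-one-out range from -0.52, and -0.21 without both libraries), heat-shock chaperones (-0.34 without both, -0.58 to -0.37 with 1 library left out) and respiratory chain genes (-0.10 after median-centring). With 1 library left out, medians changed sign for inflammatory mediators (-0.15 to 1.80), neutrophil (-0.12 to 0.91), erythroid (-0.30 to 1.41), monocyte (-0.62 to 0.053), skeletal muscle (-0.48 to 0.072), alveolar macrophage (-0.29 to 0.11), endothelial (-0.033 to 0.21) and fibroblast markers (-0.078 to 0.16), and for ribosomal, proteasome and mitochondrial genome lists, which ranged from -0.15 to 0.093 at most. Among single genes near 0 the sign also turned with 1 library left out for Pdpn, Ncr1, Usp18, Ndufa6, G6pdx and mt-Nd3. After median-centring 0 genes were apart and lower in the cell cycle, cytosolic ribosomal and fasting lists, and 4 splicing regulators were. Under that scaling 16.1% of all genes were lower. The labelled limma counts at an adjusted p under 0.05 were less stable. VILI 0 hours against control gave 20 higher genes with a pseudocount of 1, 17 without a filter, 1 with the highest transcript, 707 with only the 6 libraries compared and 1 to 588 with a library left out, and lower genes numbered 1, 716 and 0 to 464 under the last 3. VILI 6 hours against control gave 15 higher and 9 lower genes with the highest transcript, 40 and 18 with only the 6 libraries compared, and 1 to 1262 and 0 to 2478 with a library left out. VILI 6 hours against VILI 0 hours gave 1 and 1 without a filter, 1 higher with only the 6 libraries compared, and 0 to 165 and 0 to 186 with a library left out. The upper ends all came from leaving out VILI 6 hours replicate 1, and leaving out any control gave at most 2 calls a direction in each comparison. The cause was not tested. Deviations of same-numbered libraries from their group means correlated at -0.275 to 0.054. Differently numbered libraries were not set beside them, so this cannot decide whether the replicate numbers pair samples. With a replicate block the counts were 6 higher and 1 lower, 17 and 3, and 0 and 0 in these comparisons. The values are FPKM and no counts were used, so no limit from counting is given.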

Other observations

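Gene families formed from symbols after values had been seen also differed in how many members were apart. Of 336 zinc finger genes named Zfp, mostly transcription repressors of the KRAB class, 128 (38.1%) were lower in the high-Cirbp libraries and 16 (4.76%) higher, beside 22.1% and 8.09% of all genes. Their median difference was -0.27, with -0.11 within VILI 0 hours and -0.36 within VILI 6 hours, and near-identical copies make single Zfp genes uncertain. Genes named Ccdc (38 of 100 lower, 5 higher, median -0.29), mitochondrial ribosomal proteins (28 of 78 lower, 2 higher, median -0.20) and cytochrome P450 genes (12 of 27 lower, none higher, median -0.26) leaned the same way. Translation initiation factors named Eif leaned the other way, with 14 of 54 (25.9%) higher and 3 lower and a median of 0.075. Solute carriers were close to all genes, with 20 higher and 47 lower of 226.

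The share of apart genes also varied with the level and base composition of the transcripts. With genes ordered by mean FPKM into 10 bins of like size, the share lower in the high-Cirbp libraries was 22.9% in bin 1, the lowest, 31.4% in bin 2 and 11.5% in bin 10, the highest, and the share higher was 6.04%, 4.44% and 12.9%. Median mean FPKM was 15.8 for the higher genes, 7.62 for the lower genes and 10.4 for those that overlapped. By GC content of the longest transcript the lower share was 27.0% in the lowest of 10 bins and 13.3% in the highest, while the median difference stayed between -0.118 and -0.084. The part of level in the family counts above was not tested.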
